A study of Mus musculus with 3 samples.

Results

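The 10 heterogeneous nuclear ribonucleoprotein (hnRNP) genes described here are Hnrnpa1, Hnrnpa2b1, Hnrnpa3, Hnrnpc, Hnrnpd, Hnrnpdl, Hnrnph1, Hnrnpk, Hnrnpl and Hnrnpu. They were chosen by gene symbol, with earlier results of these data known. All 10 were found among the 55536 Ensembl mouse genes of the deposited tables. RNA bound to chromatin was isolated from C57BL/6J bone marrow-derived macrophages that had been treated for 25 min with 100 ng/ml of Lipid A, the lipid anchor of bacterial endotoxin and a ligand of Toll-like receptor 4. After removal of ribosomal RNA, total RNA was sequenced in 3 libraries of this single group, labelled biological replicates 1, 2 and 3 and made from 1000, 250 and 500 ng of RNA. Sex and age were not collected. All 3 libraries carry the same donor record, and nothing says whether they came from separate animals or cultures, so p-values measure only the spread between these libraries, which may be technical. An untreated group and other fractions are not analysed here, so no effect of Lipid A and no enrichment on chromatin can be read from the values.

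hnRNP proteins bind pre-mRNA while it is still being transcribed, package it, and influence which splice sites are used, how the RNA leaves the nucleus and how long it lasts. Members differ in the short RNA motifs they prefer. Several are known, mostly from human cells, to limit their own amount: HNRNPL, HNRNPDL and HNRNPA2B1 protein changes the splicing of its own transcript towards forms that nonsense-mediated decay (NMD) removes in the cytoplasm. Chromatin RNA holds nascent and unreleased transcripts, so it shows such forms before export and decay, together with introns that are not yet removed.

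The sequences below mark the exon and the introns that set the leading transcripts of Hnrnpl, Hnrnph1, Hnrnpa2b1 and Hnrnpdl, and the NMD transcript of Hnrnpl, apart from the coding messages of the same genes. They were read from GENCODE M21 transcripts (assembly mm10) on the strand of the gene. The first is the whole cassette exon of Hnrnpl that occurs in its NMD transcript, Hnrnpl-213, with the stop codon that ends the reading frame in capitals. The exon is at chr7:28817335-28817404 (+). The stop codon takes positions 57 to 59 of the 70-nt exon, counted from its 5′ end. The exon sits inside a 3108-nt intron of the coding transcripts, 1982 nt after the exon before it and 1056 nt before the next.
Hnrnpl cassette exon: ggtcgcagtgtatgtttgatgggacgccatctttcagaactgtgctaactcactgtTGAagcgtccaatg

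The next sequence is the exon end at which Hnrnpl-206, the leading Hnrnpl transcript, reads on into that same intron, at chr7:28815343-28815372 (+). It shows 10 exonic and then 20 intronic bases, with the first 2 intronic bases in capitals.
Hnrnpl intron entry: agtggacaagGTaatcctgatggctacttt

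For Hnrnph1, the pair of neighbouring introns that its leading transcript Hnrnph1-204 keeps is shown by its 4 junctions, each with 10 exonic and 20 intronic bases and the outermost 2 intronic bases in capitals. The 1494-nt intron lies at chr11:50379965-50381458 (+) and the 939-nt intron at chr11:50381598-50382536 (+).
Hnrnph1 1494-nt intron, 5′ junction: ttcttctcagGTatgtagtcctgtttgttg
Hnrnph1 1494-nt intron, 3′ junction: tatttgtccttgggttgaAGggttggaaat
Hnrnph1 939-nt intron, 5′ junction: tagggcacagGTggggatggatggttggtt
Hnrnph1 939-nt intron, 3′ junction: ccttttggacaatgctttAGgtatattgaa

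Hnrnpa2b1-213, the leading transcript of Hnrnpa2b1, keeps an 80-nt intron at chr6:51466223-51466302 (-), printed whole, and a 2375-nt intron at chr6:51467296-51469670 (-), printed by its junctions, with the outermost 2 intronic bases in capitals.
Hnrnpa2b1 80-nt intron: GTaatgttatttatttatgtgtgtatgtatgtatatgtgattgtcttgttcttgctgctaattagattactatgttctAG
Hnrnpa2b1 2375-nt intron, 5′ junction: cgcgatggagGTaacgggtttgaaatcaat
Hnrnpa2b1 2375-nt intron, 3′ junction: aatggtatttccctttgcAGagagaaaagg

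Hnrnpdl-207, the leading transcript of Hnrnpdl, keeps the 1119-nt intron at chr5:100034985-100036103 (-), which lies after the end of its coding sequence. Its junctions are drawn in the same way.
Hnrnpdl 1119-nt intron, 5′ junction: gggagagcagGTgtgtgagatgcaggaaag
Hnrnpdl 1119-nt intron, 3′ junction: gtgtttcgtttttgttttAGgaggtgtaaa
Each of the 5 kept introns, and the intron entered by Hnrnpl-206, begins with GT, and each of the 5 ends with AG, the bases of the common class of introns.

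The gene tables held 13525994, 19230763 and 19207049 expected counts in replicates 1, 2 and 3. A ribosomal DNA locus on chromosome 17 took 8.46% of them in replicate 1, 27.1% in replicate 2 and 23.1% in replicate 3. The 10 hnRNP genes together took 0.394%, 0.310% and 0.296% of the counts on Ensembl genes. The macrophage label was checked against 8 markers, which all had at least 1 TPM (a level per transcript length, scaled to the same sum in each library), with a median of 261.5 TPM. None of 15 markers of T cells, B cells, neutrophils, erythroid, stromal and endothelial cells had a mean of 1 TPM or more, and the highest single values were 1.61 TPM for Col1a1 in replicate 3 and 1.53 TPM for Pecam1 in replicate 1. Their summed level was 1.81, 1.98 and 3.24 TPM in replicates 1, 2 and 3, against 2494, 1773 and 2126 TPM for the macrophage markers.

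All 10 hnRNP genes were well above the typical gene. Their mean levels ran from 92.3 to 2092 TPM, with a median of 409.5 TPM, and 9 of 10 exceeded 100 TPM. The median over the 15332 genes with at least 1 TPM was 11.5 TPM, and 1376 of them reached 100 TPM. With a single group these levels are a description with no test, and in bulk RNA fewer cells holding a transcript and less of it per cell cannot be told apart.

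Among the A/B-type proteins, which pack nascent RNA and repress splice sites, Hnrnpa2b1 (ENSMUSG00000004980, chr6:51460932-51469894, minus strand) stood first. Its level was 2562, 1785 and 1928 TPM in replicates 1, 2 and 3, with a mean of 2092 ± 414 TPM (SD, n = 3), rank 19 of 46615 genes of at least 300 nt. It made up 40.7% of the summed level of the 10 genes, and its lowest library lay above the highest library of any other member. Hnrnpa3 (ENSMUSG00000059005, chr2:75659261-75669407, plus strand), a close relative, had 546.2, 378.4 and 465.3 TPM (mean 463 ± 84.0, SD, n = 3). Hnrnpa1 (ENSMUSG00000046434, chr15:103240432-103246692, plus strand), the best known splicing repressor of the family, had 160.9, 169.8 and 159.7 TPM (mean 163.5 ± 5.53, SD, n = 3). On this scale it was the least variable of the 10. Hnrnpdl varied less than Hnrnpa1 as deposited TPM, as CPM, in the kallisto-type tables and without the ribosomal DNA locus. The libraries of Hnrnpa1 did not overlap those of Hnrnpa3 or Hnrnpa2b1.

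Of the proteins that recognise short RNA motifs, Hnrnph1, which binds runs of G, was highest (ENSMUSG00000007850, chr11:50376990-50386528, plus strand). It had 823.5, 463.1 and 524.7 TPM (mean 604 ± 193, SD, n = 3), with replicate 1 above the others. Hnrnpk (ENSMUSG00000021546, chr13:58391142-58403343, minus strand), a KH-domain protein that binds C-rich RNA and DNA, had 649.3, 583.6 and 444.9 TPM (mean 559 ± 104, SD, n = 3). Its range overlapped that of Hnrnph1. Hnrnpl (ENSMUSG00000015165, chr7:28808541-28822266, plus strand), which binds CA repeats, had 362.2, 448.8 and 339.4 TPM (mean 383 ± 57.7, SD, n = 3). On this scale it was the only member besides Hnrnpa1 with its highest value in replicate 2. Rescaled without the ribosomal DNA locus, Hnrnpdl, Hnrnpk and Hnrnpu also had their highest value in replicate 2. Hnrnpc (ENSMUSG00000060373, chr14:52073377-52104028, minus strand), which binds U tracts and forms the tetramer of the core hnRNP particle, had 205.7, 83.6 and 119.5 TPM (mean 136 ± 62.8, SD, n = 3). Its coefficient of variation, 46.0%, was the highest of the 10, against a median of 20.8% over the 8186 genes with at least 10 TPM.

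Hnrnpd, also called AUF1, and its relative Hnrnpdl bind AU-rich elements, which mark many cytokine and early-response messages for decay. Hnrnpd (ENSMUSG00000000568, chr5:99955935-99978938, minus strand) was the lowest member, with 115.2, 71.0 and 90.8 TPM (mean 92.3 ± 22.1, SD, n = 3). Hnrnpdl (ENSMUSG00000029328, chr5:100033577-100039664, minus strand) lay on the same chromosome and had 225.7, 197.5 and 200.3 TPM (mean 208 ± 15.5, SD, n = 3). Every library of Hnrnpdl exceeded every library of Hnrnpd. Hnrnpu (ENSMUSG00000039630, chr1:178321108-178337797, minus strand), the scaffold attachment factor that ties RNA to chromatin, had 489.8, 463.8 and 353.1 TPM (mean 435.5 ± 72.6, SD, n = 3).

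Ordered by mean level, the genes ran Hnrnpa2b1, Hnrnph1, Hnrnpk, Hnrnpa3, Hnrnpu, Hnrnpl, Hnrnpdl, Hnrnpa1, Hnrnpc and Hnrnpd. Neighbours in that order had ranges apart at 3 steps: Hnrnpa2b1 over Hnrnph1, Hnrnpl over Hnrnpdl, and Hnrnpdl over Hnrnpa1. At the other 6 steps the ranges of neighbours overlapped. Members further apart in the order could still be separate, as every library of Hnrnph1 lay above every library of Hnrnpl, and every library of Hnrnpa1 above every library of Hnrnpd. Parts of the order changed in the kallisto-type tables. There Hnrnpa1, with 105.6, 93.4 and 74.55 TPM in replicates 1, 2 and 3, overlapped Hnrnpd, with 114.8, 77.8 and 81.85 TPM. Hnrnpc, with a mean of 156 TPM, passed Hnrnpdl, with 125 TPM.

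**Figure D1:**
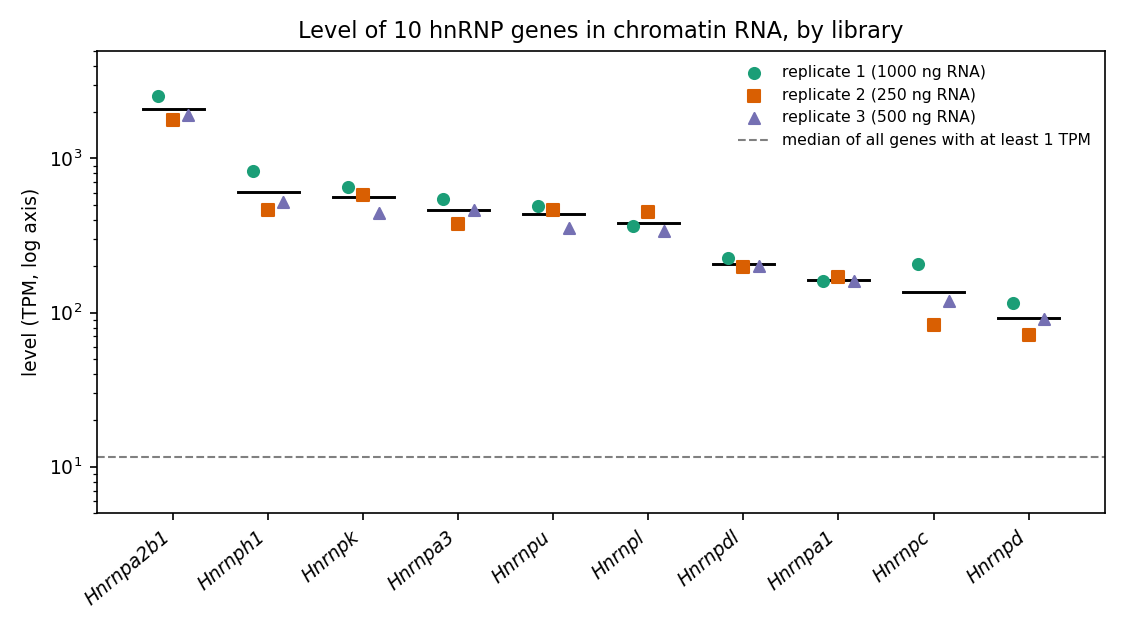
Level of each hnRNP gene (vertical log axis, TPM) in the 3 libraries (points) with the mean (black line), and the median of all genes with at least 1 TPM (dashed line, 11.5 TPM). Hnrnpa2b1 sits alone at the top, between 1785 and 2562 TPM, and every point of every member lies above the dashed line.

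How the RNA of these genes divides over annotated transcript classes was examined next. Each share is the percentage of a gene's estimated counts in the kallisto-type table that fell on transcripts annotated as protein_coding, retained_intron, nonsense_mediated_decay or other. A member had between 1062 and 26623 such counts per library, and the 95% Wilson interval of a share in one library spanned at most 5.67 percentage points. Intervals cover counting error only and not the division of reads between overlapping transcripts.

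Protein_coding transcripts held most of the counts in 5 of the 10 genes, beside 70.4% of the 12117 genes that have such a transcript and at least 50 counts. The median share over the members was 50.05%, against 75.6% over all those genes. Retained_intron transcripts held most of the counts in 2 of the 8 members that have one, Hnrnpl and Hnrnpa2b1, beside 31.2% of 7383 genes. Members had a median of 9.27%, against 30.7% over all genes with the class. Nonsense_mediated_decay transcripts held most of the counts in 1 of 7 members, Hnrnpa1, beside 6.59% of 3583 genes. Here members had a median of 15.6%, against 6.04% over all. As shares of TPM, Hnrnpk moved from the protein_coding to the retained_intron group. That gave 4 of 10 beside 52.7% of all genes with the class, and 3 of 8 beside 40.3%. These counts of members are too small to be read as a difference from the background.

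Hnrnpl had the highest retained_intron share, at 75.2%, 69.6% and 66.45% in replicates 1, 2 and 3 (mean 70.4 ± 4.45, SD, n = 3). Hnrnpl-206 alone took 46.85%, 39.7% and 37.0% of the counts of the gene. It ends in an exon that reads 1608 nt into the intron entered at the sequence shown above, at chr7:28815353-28816960. Hnrnpl-205, which begins in the 627 nt before the next coding exon (chr7:28817834-28818460), added 12.45 ± 1.32% (SD, n = 3). The NMD transcript Hnrnpl-213, with the 70-nt cassette exon between those stretches, took 16.5%, 15.7% and 14.7% (mean 15.6 ± 0.915, SD, n = 3). Behind its stop codon 7 further exons follow, and the last junction lies 845 nt downstream of the end of the coding part. All 3 transcripts carry parts of the one 3108-nt intron. Protein_coding transcripts took 8.26%, 14.8% and 18.9% (mean 13.96 ± 5.35, SD, n = 3).

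Hnrnpa1 stood at the other end, with nonsense_mediated_decay shares of 76.05%, 83.7% and 90.8% (mean 83.5 ± 7.39, SD, n = 3). Of the 3583 genes with the class, 97.6% had a lower share. The gene has no transcript annotated as retained_intron. Hnrnpa1-204 took 68.65%, 61.5% and 68.95% of the counts, and Hnrnpa1-203 took 7.40%, 22.2% and 21.9%. Both carry exons of 76 and 148 nt that lie downstream of every exon of the coding (CCDS) transcripts, at chr15:103246346-103246421 and chr15:103246545-103246692. Both keep the stop codon of the coding transcripts and differ behind it, with the last junction 1804 nt from the coding end in Hnrnpa1-204 and 93 nt in Hnrnpa1-203. Hnrnpa1-204 also has a 1711-nt exon that runs on past the last coding-transcript exon, and 1235 of its 3118 nt lie outside the coding transcripts. The tables give counts per transcript and not per base, so reads beyond the usual transcript end and a spliced decay form cannot be told apart. In the RSEM-type table the nonsense_mediated_decay share was 92.8 ± 5.21% (SD, n = 3).

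Hnrnpu had nonsense_mediated_decay shares of 20.3%, 37.2% and 39.3% (mean 32.3 ± 10.45, SD, n = 3), the largest spread between libraries of any class share here, with replicate 1 the low one. Hnrnpu-206 made up nearly all of it, at 19.8%, 37.1% and 39.3%. It skips most of the long last exon of the coding transcript, keeps 71 nt of it, and adds exons of 51, 94 and 122 nt downstream, at chr1:178323966-178324016, chr1:178323620-178323713 and chr1:178323074-178323195. Its reading frame ends in the 71-nt stretch, 186 nt before the last junction. Its RSEM-type shares were 16.2%, 37.1% and 40.1%, again with replicate 1 low. The replicate 1 library was made from the most RNA and had the lowest share of counts on the ribosomal DNA locus. The part of either in the difference was not tested. Protein_coding counts of Hnrnpu were 46.9%, 34.8% and 36.1% of the gene (mean 39.3 ± 6.66, SD, n = 3). Retained_intron transcripts took 8.65 ± 1.23% and those of other classes 19.8 ± 2.91% (SD, n = 3). Of the latter, Hnrnpu-205 held 8.975%, and all its 2640 nt lie outside the span of the coding transcript. For Hnrnpu-206 too, reads beyond the usual transcript end and a spliced decay form cannot be told apart. The protein_coding share was 9.52 ± 1.47% of TPM, and 50.6 ± 8.67% with RSEM-type counts (SD, n = 3).

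Hnrnpa2b1 was divided between retained_intron transcripts, with 60.9%, 47.4% and 48.3% (mean 52.2 ± 7.51, SD, n = 3), and protein_coding ones, with 34.3%, 50.1% and 44.7% (mean 43.0 ± 8.02, SD, n = 3). Replicate 1 was the one library with over 50% of the counts on retained_intron transcripts. Their share also exceeded the protein_coding share in replicate 3, and in replicate 2 it was the lower of these. Hnrnpa2b1-213, with the introns printed above, took 27.0%, 21.8% and 20.97%. Its NMD transcripts took 4.86%, 2.50% and 6.98% (mean 4.78 ± 2.24, SD, n = 3).

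Hnrnpk was split in a similar way, with 57.1 ± 3.21% on protein_coding and 41.6 ± 3.88% on retained_intron transcripts (SD, n = 3). The retained_intron share was 45.8%, 40.6% and 38.2% in replicates 1, 2 and 3. As shares of TPM the majority turned, with 38.8 ± 4.85% on protein_coding and 59.1 ± 5.74% on retained_intron transcripts (SD, n = 3). Hnrnpk has 34 annotated transcripts. By counts, Hnrnpk-221 held 19.3 ± 1.2% and the retained_intron transcript Hnrnpk-204 held 16.3 ± 2.05% (SD, n = 3). NMD transcripts took 1.36 ± 0.674% (SD, n = 3).

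The AU-rich element binding genes put a part of their counts on NMD transcripts. Hnrnpd had 29.45%, 32.7% and 31.4% (mean 31.2 ± 1.62, SD, n = 3), mainly on Hnrnpd-208, whose 107-nt exon (chr5:99962098-99962204) is absent from the CCDS transcripts. That exon lies behind the stop codon, which Hnrnpd-208 shares with a CCDS transcript, and the last junction is 140 nt from the coding end, against 33 nt in the protein_coding Hnrnpd-211. Hnrnpdl had 7.10%, 12.5% and 12.3% (mean 10.6 ± 3.07, SD, n = 3), mainly on Hnrnpdl-205, which has an extra 314-nt exon (chr5:100035426-100035739) inside the 1119-nt intron. The coding end of Hnrnpdl-205 is not shared with a CCDS transcript and lies before that exon. Behind it 7 further exons follow, with the last junction 863 nt downstream. The retained_intron shares were 3.61 ± 0.725% for Hnrnpd and 9.89 ± 1.49% for Hnrnpdl (SD, n = 3).

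Hnrnpc and Hnrnpa3 had the highest protein_coding shares, 97.5 ± 0.337% and 93.0 ± 1.24% (SD, n = 3), and neither has an annotated NMD transcript. Their retained_intron shares were 2.50 ± 0.337% and 6.96 ± 1.24% (SD, n = 3). Hnrnph1 has neither a retained_intron nor an NMD transcript in this annotation. Only 5.06%, 11.1% and 5.86% of its counts were on protein_coding transcripts (mean 7.34 ± 3.28, SD, n = 3), and the other 92.7 ± 3.28% were on transcripts of other classes, of which it has 15.

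**Figure D2:**
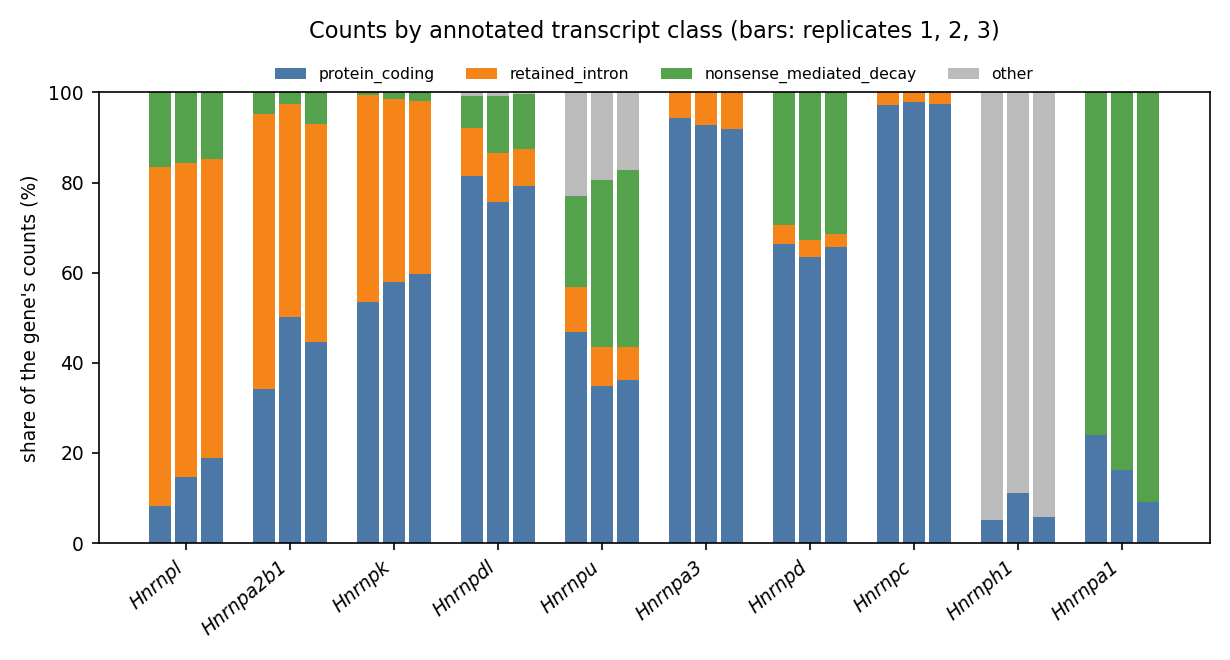
Share of each gene's estimated counts (vertical axis, percent) on the 4 transcript classes, with 1 bar per library in the order replicate 1, 2, 3. Hnrnpl and Hnrnpa2b1 have the highest retained_intron shares (means of 70.4% and 52.2%), Hnrnpa1 is mostly nonsense_mediated_decay (76.05% to 90.8%), and Hnrnph1 is almost wholly in other classes.

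The class names hide part of the intronic signal. Hnrnph1-204, with 45.7%, 49.45% and 52.1% of the counts of Hnrnph1, is annotated as a processed transcript but keeps the 1494-nt and 939-nt introns shown above. Hnrnpdl-207 is annotated as protein_coding and took 66.8%, 64.9% and 64.2% of the counts of Hnrnpdl, yet it keeps the 1119-nt intron behind the coding sequence. Hnrnpc-210, also annotated as protein_coding, took 33.8 ± 1.29% of the counts of Hnrnpc (SD, n = 3) and has 1197 nt that are intronic in the coding transcripts. Counts were therefore also summed over all transcripts, of any class, with at least 50 nt inside introns of the CCDS transcripts of the gene and outside all their exons. This measure was chosen after the class shares had been seen.

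By this measure 5 of the 10 genes had most of their counts on transcripts with intronic bases, beside 33.5% of 11811 genes. As shares of TPM it was 8 of the 10, beside 52.4% of those genes. The 11811 genes are those with a CCDS transcript and at least 50 mean counts. They were not limited to genes that have an annotated transcript with intronic bases. The share of counts was 94.5%, 89.2% and 86.3% for Hnrnpl (mean 90.0 ± 4.16, SD, n = 3). For Hnrnpdl it was 85.3%, 89.2% and 85.0% (mean 86.5 ± 2.34, SD, n = 3), although its retained_intron share was under 11% in each library. For Hnrnph1, with no retained_intron transcript, it was 86.1%, 78.8% and 83.2% (mean 82.7 ± 3.64, SD, n = 3). Hnrnpdl overlapped both of the others, Hnrnpl lay just above Hnrnph1 in every library, and all 3 lay above Hnrnpa2b1.

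Hnrnpk followed with 80.9%, 73.9% and 71.9% (mean 75.5 ± 4.71, SD, n = 3), of which 36.9 percentage points were on transcripts annotated as protein_coding. Hnrnpa2b1 had 52.2 ± 7.51%, above 50% in replicate 1 alone and all of it on retained_intron transcripts, and Hnrnpc had 47.1 ± 3.07%, nearly all on protein_coding ones (SD, n = 3). The lower members were Hnrnpd with 34.8 ± 1.56%, Hnrnpa3 with 24.1 ± 3.17% and Hnrnpu with 19.4 ± 2.35% (SD, n = 3). The place of the last 2 depends on the unit, since as shares of TPM Hnrnpa3 had 68.7 ± 3.35% and Hnrnpu 60.35 ± 4.47% (SD, n = 3). Hnrnpa1 had none, because none of its 5 annotated transcripts holds intronic bases, so reads inside its introns had no transcript to be counted on. The median over the 10 members was 49.7%, against 29.3% over all 11811 genes, which need not have an annotated transcript with intronic bases. As shares of TPM the medians lay closer together, at 66.6% for the members and 52.3% for all those genes. The measure also takes in extra exons that are not kept introns. Such exons, of 70 and 107 nt, are the only intronic bases of Hnrnpl-213 and Hnrnpd-208. These transcripts held 15.6% and 20.1% of the counts of their genes. Where a transcript does run through an intron, a kept intron in finished RNA and one not yet removed from nascent RNA cannot be told apart.

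**Figure D3:**
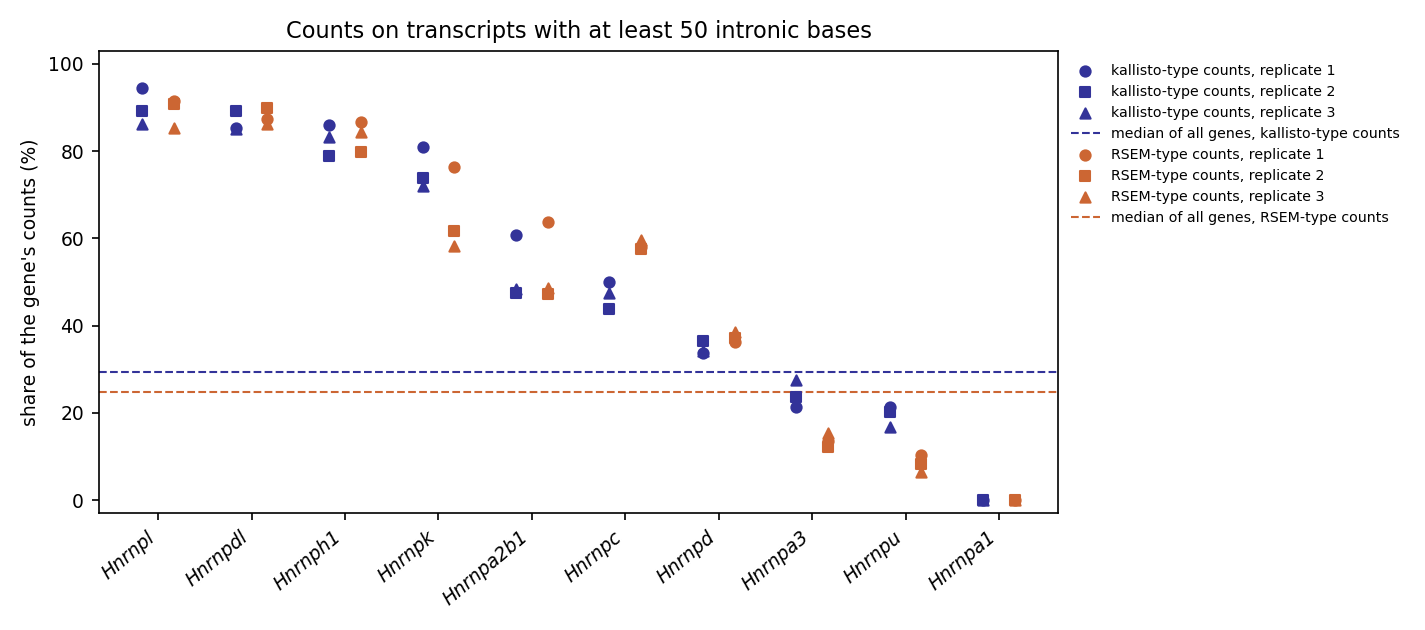
Share of each gene's counts on transcripts with at least 50 intronic bases (vertical axis, percent) by library, in the kallisto-type and the RSEM-type tables, with the median of all genes in each (dashed lines, 29.3% and 24.7%). Hnrnpl, Hnrnpdl and Hnrnph1 lie above 78% in every library and both tables, and Hnrnpa1 is at 0 in both.

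**Figure D4:**
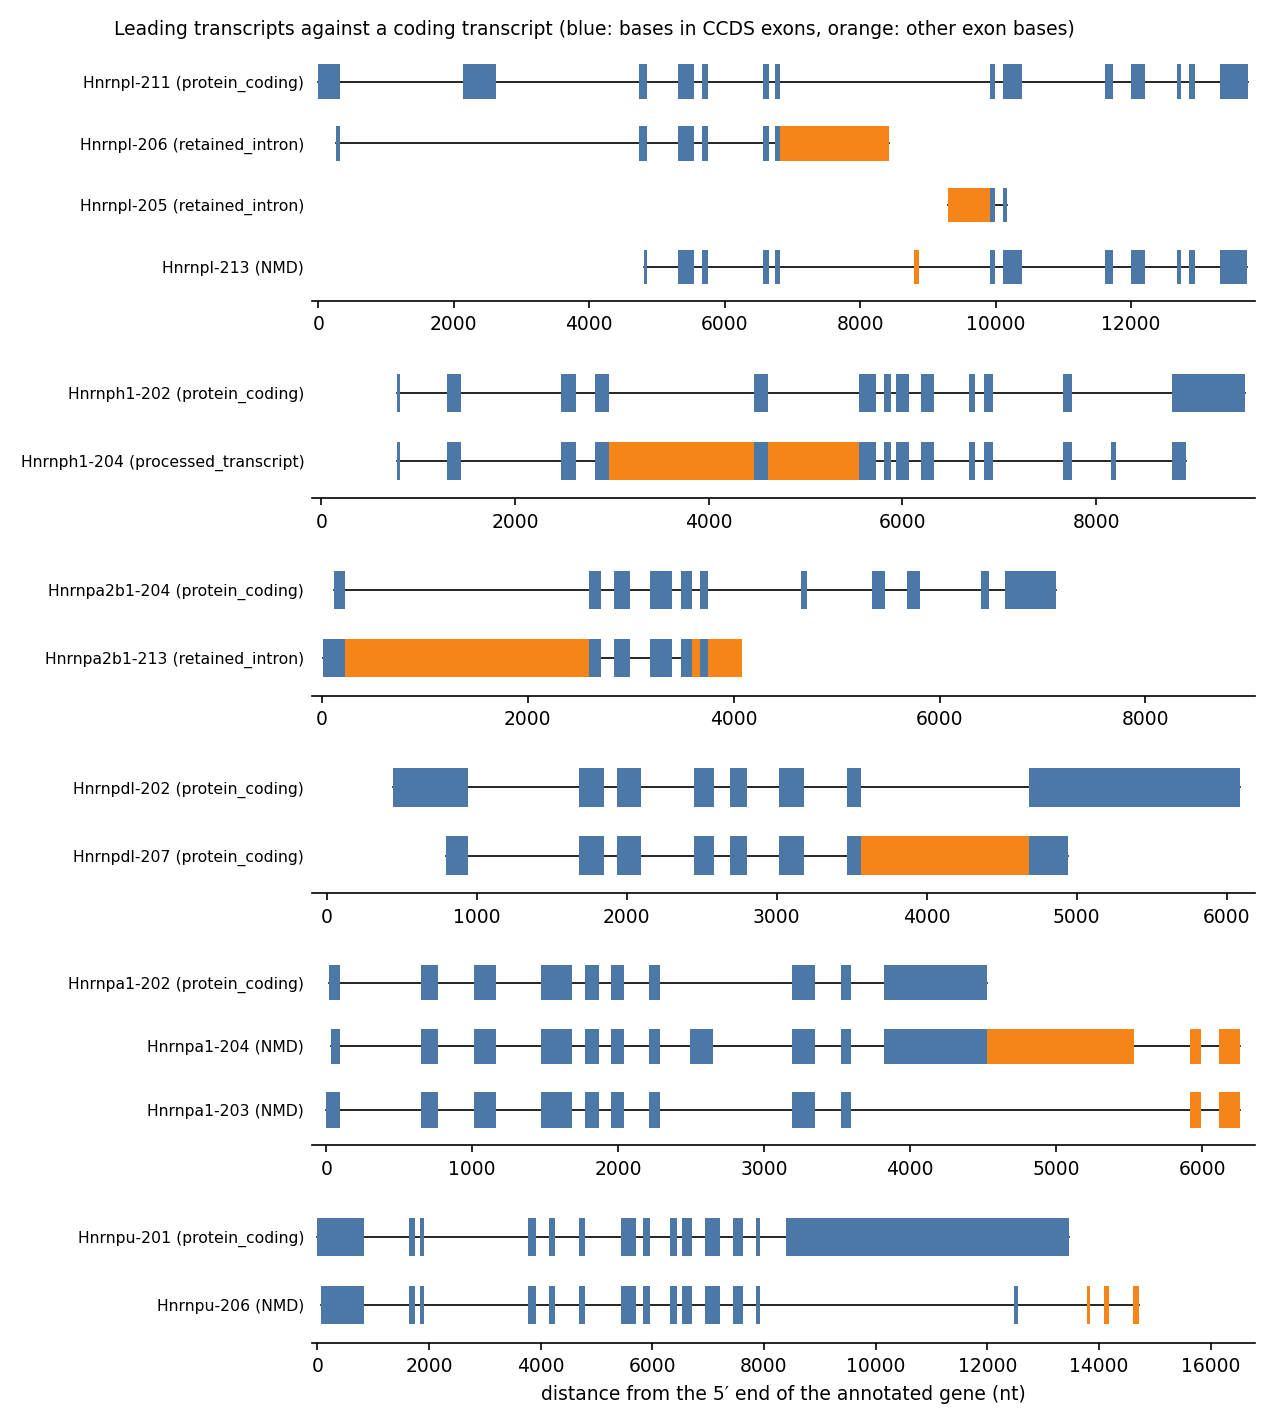
Exons of leading transcripts against a coding transcript for 6 hnRNP genes, drawn as distance from the 5′ end of the annotated gene (nt); blue marks bases in exons of CCDS transcripts and orange other exon bases. Hnrnpl, Hnrnph1, Hnrnpa2b1 and Hnrnpdl gain sequence inside introns, whereas the orange bases of Hnrnpa1 and Hnrnpu lie downstream of the coding transcripts.

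Motifs that the encoded proteins are known to bind were counted, on the RNA strand, in longer intronic parts of a few leading transcripts. These were Hnrnpl-206, Hnrnpl-205, Hnrnph1-204, Hnrnpa2b1-213 and Hnrnpc-210, and other members were not examined. Overlapping matches were allowed. The counts were set beside those in intronic parts within 20% of the same length in all annotated transcripts, the counted part itself included. TTTTT, for the U tracts bound by hnRNP C, occurred 26 times in a 693-nt part of Hnrnpc-210 (chr14:52097322-52098014) and 17 times in a 504-nt part (chr14:52098041-52098544). The compared parts had a median of 2 and 1 matches, 70.4% and 57.2% of them held the motif, and 0.651% and 1.47% held at least as many. Both Hnrnpc parts lie side by side in the gene, so they are not separate observations. Compared parts were matched on length and not on base content. CACACA, for the CA repeats bound by hnRNP L, occurred 1 time in the 1608-nt part of Hnrnpl-206, where 53.2% of parts held it, and 0 times in the 627-nt part of Hnrnpl-205. GGGG occurred 1 time in each of the 2 introns of Hnrnph1-204, where 92.4% and 84.1% of parts held at least 1. TAGGG occurred 2 times in the 2375-nt intron of Hnrnpa2b1, where 78.3% of parts held it, and 0 times in its 324-nt part (chr6:51465818-51466141), where 22.65% did. A match is a string of letters and not a binding site.

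The genes whose class shares were most like those of 3 members were taken by Euclidean distance over the 9 values of 3 classes in 3 libraries. For Hnrnpl, the nearest of 2829 genes with the same classes annotated were Dhodh, Sgk3 and Riok3, with retained_intron shares of 69.7%, 70.4% and 66.0%. For Hnrnpc, with the lowest retained_intron share, they were Luzp1, Anks1 and Mettl6 among 4375 genes, with shares of 2.49%, 2.39% and 2.65%. For Hnrnpa1 they were Olfr1280, Xrcc4 and Poli among 728 genes, with nonsense_mediated_decay shares of 84.1%, 79.2% and 83.7%. Likeness in these percentages says nothing of shared function.

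The other hnRNP genes are the rest of the family and its close relatives. All 17 had at least 1 TPM, with a median level of 60.7 TPM against 409.5 TPM for the 10 members. Both lists were chosen with earlier results of these data known, so this difference may come from the choice. Among the higher ones were Hnrnpll, the relative of Hnrnpl, with 575 ± 304 TPM, and Hnrnpm with 407 ± 24.3 TPM (SD, n = 3). The lowest were Hnrnpa0 with 2.08 ± 0.700 TPM and Pcbp1 with 12.9 ± 2.95 TPM (SD, n = 3). Their median share of counts on transcripts with intronic bases was 45.9%, beside 49.7% for the members. Hnrnpll had 97.5%, beside 90.0% for Hnrnpl, while Hnrnpa0 and Pcbp1 had 0.

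The splicing factors of the SR family and Tra2 genes, which often act against hnRNP proteins at splice sites, had a median level of 129 TPM and a median intronic-base share of 64.9%. Over the 10 of them with a retained_intron transcript the median share of that class was 61.3%, against 9.27% over 8 hnRNP members. As shares of TPM these medians were 49.7% and 28.5%, beside 42.7% over all genes with the class. The NMD and exon-junction factors, which remove transcripts with early stop codons, had a median of 32.8 TPM over 15 genes. The highest were the kinase Smg1 with 312 ± 32.1 TPM, Smg9 with 83.2 ± 10.85 TPM and the endonuclease Smg6 with 70.3 ± 2.43 TPM, and the lowest were Smg8 with 2.43 ± 0.349 TPM and Magohb with 3.99 ± 1.497 TPM (SD, n = 3). Over the 13 of them with at least 50 mean counts, the median intronic-base share was 15.25%. No test between lists was made.

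RNA amount is the only labelled difference between the libraries, so the change per doubling of RNA amount was fitted across 15077 genes with edgeR's quasi-likelihood test and Benjamini-Hochberg adjustment. With 1 library per amount and 1 residual degree of freedom, this is a test of a trend among these libraries. Much of the information on the spread of each gene is borrowed by edgeR from the other genes. The standard errors and p-values rest on that sharing. None of the 10 hnRNP genes passed an adjusted p of 0.05 by edgeR, beside 4.38% of all genes tested, 661 in all. At an unadjusted p under 0.05 edgeR gave 2 of the 10, Hnrnpc and Hnrnpl, and DESeq2 gave 0 adjusted and 1 unadjusted.

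In TMM-normalised CPM, Hnrnpc had 134.5 in the 1000-ng library, 100.5 in the 500-ng library and 81.9 in the 250-ng library. The order followed the RNA amount, with a log2 change of 0.36 per doubling (SE 0.13, edgeR adjusted p = 0.119). Hnrnpl had 158, 176.9 and 239.2 in the same order, the reverse, with a log2 change of -0.30 per doubling (SE 0.13, edgeR adjusted p = 0.177). The other 8 genes lay between -0.12 for Hnrnpu and 0.20 for Hnrnph1, with standard errors of 0.13 to 0.14. Of these 8, 6 changed sign without replicate 1 or without replicate 2, from -0.09 to 0.26 for Hnrnpk without replicate 2, for example. A p above the threshold does not show that the amounts did not matter.

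Of the other hnRNP genes, 1 of 17 rose with RNA amount, Hnrnpll, with a log2 change of 0.48 per doubling (SE 0.13, edgeR adjusted p = 0.0423), beside 2.98% of all genes that rose. Its adjusted p was 0.0511 with DESeq2 and 0.0789 with kallisto-type counts. Of the decay factors, 1 of 15 fell, Eif4a3, an exon-junction helicase, with a log2 change of -0.74 (SE 0.19, edgeR adjusted p = 0.0334), beside 1.41% of all genes that fell. Its adjusted p was 0.104 with DESeq2. Of the 12 SR and Tra2 genes tested, 0 passed by edgeR or DESeq2, and 0 had an unadjusted p under 0.05 by either.

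**Figure D5:**
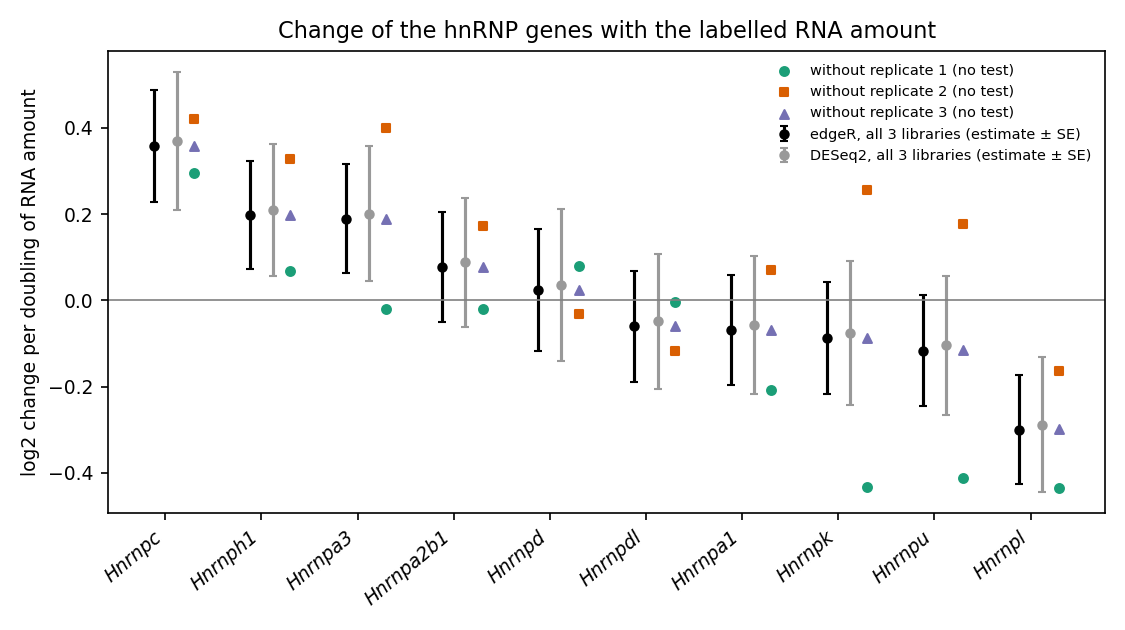
Log2 change per doubling of RNA amount (vertical axis) for each hnRNP gene, as the edgeR and DESeq2 estimates with their standard errors and as the values with each library left out, which carry no test. Hnrnpc is highest at 0.36 and Hnrnpl lowest at -0.30, and no gene passed the adjusted threshold.

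Some counts could belong to other genes. The labels and headers do not say how counting treated strand, so reads of overlapping genes on opposite strands may be mixed. Rmi1 overlaps the 5′ end of Hnrnpk by 1096 nt on the other strand and had 403.1, 681.7 and 515.5 expected counts. The antisense genes Gm44702 within Hnrnpl and Gm17092 within Hnrnpd, and Cox20, which overlaps Hnrnpu, had at most 24 counts in any library. The microRNA gene Mir7-1 within Hnrnpk and the microRNA gene Gm24574 at the start of Hnrnpa3 were listed at 0.

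Near-identical copies touch 3 members, where a copy had to match a member over 80% or more of its own length at 95% identity or better. Hnrnpa3 has 22, whose expected counts came to 6.76%, 12.5% and 13.8% of its own in replicates 1, 2 and 3. Hnrnpa1 has 11, with 8.202%, 10.7% and 10.6%, and Hnrnpk has 2, with 1.77%, 2.51% and 2.57%. Most are annotated as pseudogenes, 20 of the 22 and 10 of the 11. In the kallisto-type tables, on which the class and intronic-base shares rest, copies took larger shares for 2 of them, with 30.3%, 67.2% and 70.8% for Hnrnpa3 and 20.2%, 36.25% and 43.7% for Hnrnpa1. For Hnrnpk they took at most 0.0569%. How many of these reads belong to the members is not known, which limits the levels and the shares of Hnrnpa1 and Hnrnpa3, the nonsense_mediated_decay share of Hnrnpa1 included. The other 7 members have no such copy.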

How the data were processed

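Gene tables and both kinds of transcript table of each library were used, all on assembly mm10 with annotation GENCODE M21, per the deposited readme files. The authors deposited gene and transcript tables of expected counts and TPM with RSEM's column names, and transcript tables of estimated counts and TPM with kallisto's column names, per the file headers; no source used here gives their tools, versions, read filters or strand setting. For levels, the deposited expected counts were divided by each gene's effective length and rescaled as TPM, keeping genes of at least 300 nt. Class shares used kallisto-type counts, with all genes of at least 50 mean counts as background. A transcript table covers only annotated introns. edgeR 4.0.16 (R 4.3.3) fitted the trend over log2 RNA amount to rounded expected counts, with TMM factors, filterByExpr and Benjamini-Hochberg adjustment over all genes; DESeq2 1.42.0 was an alternative. The fit was tested on simulated counts. Copies were found with BLAST 2.17.0. The members and all gene lists were chosen with earlier results of these data known. Genes outside the 10 were named by rule: the 3 highest and 2 lowest of a list, those called, the 3 nearest in class shares, overlapping genes and copies. An item that this rule names is not reported here. Alternatives were other tables, units, minimums and denominators, and each library left out.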

Additional observations from a re-analysis of the deposited data

How the results depend on the processing

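The number of genes called with RNA amount was 661 and moved to 1181 with no filter on low counts and to 376 with DESeq2; other alternatives gave 487 to 866. No member was called in any of them, and the direction of all 10 held in each of the alternatives that used 3 libraries, although Hnrnpa1 was at 0.00 with kallisto-type counts. With 2 libraries there is no test, and the sign turned for 6 of the 10: without replicate 2 for Hnrnpa1 (0.07), Hnrnpd (-0.03), Hnrnpk (0.26) and Hnrnpu (0.18), and without replicate 1 for Hnrnpa2b1 (-0.02) and Hnrnpa3 (-0.02). The median level of the members, 409.5 TPM, was 148.6 as deposited TPM, 281.1 in the kallisto-type tables, 202.6 as CPM without length and 514.3 without the ribosomal DNA locus, the last chosen after seeing the data. Leaving out 1 library gave 386.1 to 433.9 TPM. Levels of single members moved by over 1 SD in 29 of 40 cases under those alternatives, which differ in scale, and in 0 of 30 with 1 library left out. The median protein_coding share, 50.05%, was 54.5% with RSEM-type counts, 38.6% as shares of TPM and 61.1% over the 3 classes alone, and 48.95% to 53.1% with 1 library left out. The median retained_intron share, 9.27%, was 8.09%, 28.5% and 10.4% in that order, and the median nonsense_mediated_decay share, 15.6%, was 14.5% and 12.8% in the first 2. The median intronic-base share, 49.7%, was 55.75% with RSEM-type counts and 66.6% as shares of TPM, all chosen after seeing the data. The cause of these moves was not tested. Single members moved by over 1 SD in 35 of 81 class shares under these alternatives and in 0 of 84 with 1 library left out. With at least 100 intronic bases Hnrnpa3 fell to 0 and Hnrnpl to 74.4%, and with RSEM-type counts the intronic-base share of Hnrnpu was 8.30%. No paired analysis was possible because there is only 1 group. With 1 library per amount, and a spread that is largely borrowed across genes, small trends with RNA amount may have been missed. Transcripts that share most of their bases are separated by few reads.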
